A study of Mus musculus with 18 samples.

Results

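The liver transcriptome was examined for 9 genes of bone morphogenetic protein (BMP) signalling in mice: the Id genes Id1, Id2 and Id3, the inhibitory SMAD genes Smad6 and Smad7, the hepcidin genes Hamp and Hamp2, Atoh8 and the ligand gene Bmp6. They were taken by symbol from a table of 19057 symbols, and all 9 were found. The members were selected on their RPKM in these livers, in STZ against Con and in the microbiota recipients against STZ, so those differences, and those of the recipients against Con, whose mice all entered the choice, are given below as a description and without a test. RNA was sequenced from the livers of 18 male ICR mice aged 10 weeks, 3 in each of 6 groups. The Con mice were controls. The AOS mice were labelled with alginate oligosaccharide at 10 mg/kg, and the STZ mice had received streptozotocin, a toxin of insulin-producing beta cells. The STZ+AOS mice were labelled with both agents. The A10-FMT mice had received streptozotocin and then small intestinal microbiota from donors given AOS, and the Con-FMT mice streptozotocin and then microbiota from control donors. The donor material was pooled, so the 3 mice of an FMT group shared 1 source. AOS and STZ+AOS are known here from the labels only, and how AOS was given to those mice was not given in the sources used here.

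In the liver, BMP6 is made mainly by the sinusoidal endothelium and acts on receptors of hepatocytes, where SMAD1, SMAD5 and SMAD8 (the product of Smad9) are phosphorylated and enter the nucleus with SMAD4. Their targets include the Id genes, whose proteins bind bHLH transcription factors and keep them from DNA, Smad6 and Smad7, which inhibit the pathway, Atoh8, a bHLH factor, and Hamp. Hamp encodes hepcidin, the hormone that removes the iron exporter ferroportin from cells, and its transcription is also raised by interleukin-6 through STAT3. Hamp2 is a second hepcidin gene of the mouse.

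The hepcidin genes were neighbours on chromosome 7 of GRCm38 and nearly alike in sequence. Hamp (ENSMUSG00000050440.8) lay at chr7:30942368-30944032 and Hamp2 (ENSMUSG00000056978.8) at chr7:30922372-30924681, both on the minus strand in GENCODE M21. A stretch before each start is shown because the level of Hamp2 relative to Hamp varied between livers, and the pair could be compared base by base. It held bases 150 to 51 upstream of the RefSeq start of Hamp and the aligned bases of Hamp2, and capitals mark the GC-rich hexamer known from SMAD binding and the STAT element.
Hamp, chr7:30944080-30944179, minus strand: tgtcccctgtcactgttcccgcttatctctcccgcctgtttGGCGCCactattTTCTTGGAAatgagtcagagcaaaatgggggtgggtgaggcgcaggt
Hamp2, chr7:30924229-30924328, minus strand: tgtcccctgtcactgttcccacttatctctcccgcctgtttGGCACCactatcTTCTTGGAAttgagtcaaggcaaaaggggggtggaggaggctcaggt
The stretches were identical at 90 of 100 bases. Of the 10 differences, 1 fell in the hexamer (G45A, with the base of Hamp first and positions counted from 1 at the 5′ end of the stretch shown), and none fell in the STAT element. By GENCODE both stretches lay upstream of the main transcript. The Hamp2 stretch was also within the first intron of a longer Hamp2 transcript.

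Across all 250 upstream bases, searched on both strands, 7 members had a promoter in the RefSeq table (GRCm38.p6), and no promoter was given there for Id1 and Smad7. GGCGCC was found in Hamp, starting 109 bases upstream, and in Id2, starting 231 bases upstream, against 9.59% of all 32851 promoters. TTCNNNGAA was found in Hamp (97 bases upstream) and Hamp2 (94 bases upstream), against 7.02% of all promoters. Both were present together in Hamp and in 0.368% of all promoters. CACGTG, an E-box, was found in Atoh8 and in Bmp6, 230 and 127 bases upstream, against 6.02% of all promoters. Id3 and Smad6 held none of these letters in this window. These matches describe the letters only.

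**Figure D1:**
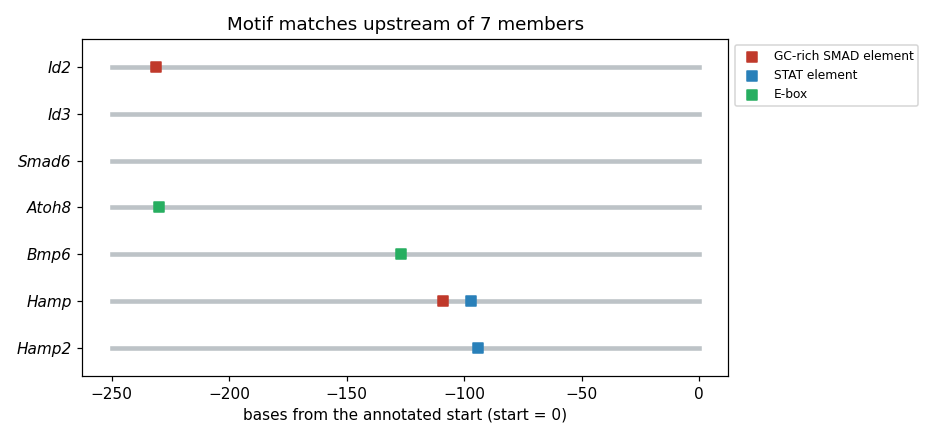
Matches to GGCGCC (GC-rich SMAD element), TTCNNNGAA (STAT element) and CACGTG (E-box) in the 250 bases before the annotated start of 7 members, with the distance from the start in bases on the x axis. Each square is the first base of a match on the gene's strand, and the STAT element lies 97 and 94 bases upstream in Hamp and Hamp2.

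Values are RPKM (reads divided by the length of the transcript in kilobases and by the reads mapped in total), which can be compared between genes because they are divided by length. In Con the mean levels ran from Hamp at 3273 ± 1152 (SD, n = 3) to Bmp6 at 0.850 ± 0.123. Between these lay Id2 at 102.1 ± 7.44, Id3 at 48.3 ± 4.83 and Atoh8 at 8.41 ± 1.11. Hamp2 at 4.59 ± 1.79 and Id1 at 3.91 ± 0.145 overlapped in level, and Smad7 at 2.09 ± 0.290 was followed by Smad6 at 1.51 ± 0.271. Id1 was the least abundant of these 3 Id genes in Con (Id4, which is no member, was at 0.253 RPKM), and 8 members reached 1 RPKM in all 18 libraries. Bmp6 did so in 9 of 18, of which 5 were STZ or STZ+AOS livers. All 9 members passed the filter of 1 RPKM in at least 3 libraries.

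The libraries had a few features in common that touch these genes. The sum of RPKM ran from 717904 to 806937 in Con and AOS and from 621121 to 712798 in the 4 groups given streptozotocin, and the median log2 difference of all genes tested was 0.21 in STZ against Con and in STZ+AOS against AOS. With median-ratio scaling it was -0.01 and 0.01, so differences are also given below relative to the median of all genes. Hepatocyte markers were abundant in every library: 6 of 6 were at 1 RPKM or more throughout, with summed levels from 33565 to 54741. The table does not give the number of reads per library.

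Id1 separated STZ and STZ+AOS from the other 4 groups. Its level was 3.77, 4.06 and 3.90 RPKM in the Con mice and 4.12, 4.85 and 5.04 RPKM in the AOS mice. It was 17.2, 14.0 and 11.2 RPKM in the STZ mice and 24.9, 8.07 and 17.9 RPKM in the STZ+AOS mice. After microbiota transfer it was 4.92, 4.86 and 3.66 RPKM in A10-FMT and 5.54, 3.92 and 3.07 RPKM in Con-FMT. The 6 livers of STZ and STZ+AOS all lay at 8.07 RPKM or above, and the 12 livers of the other 4 groups at 5.54 RPKM or below. In order of the means the groups were Con (3.91), Con-FMT (4.18), A10-FMT (4.48), AOS (4.67), STZ (14.2) and STZ+AOS (17.0 ± 8.44). Neighbours in that order overlapped, apart from AOS and STZ.

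**Figure D2:**
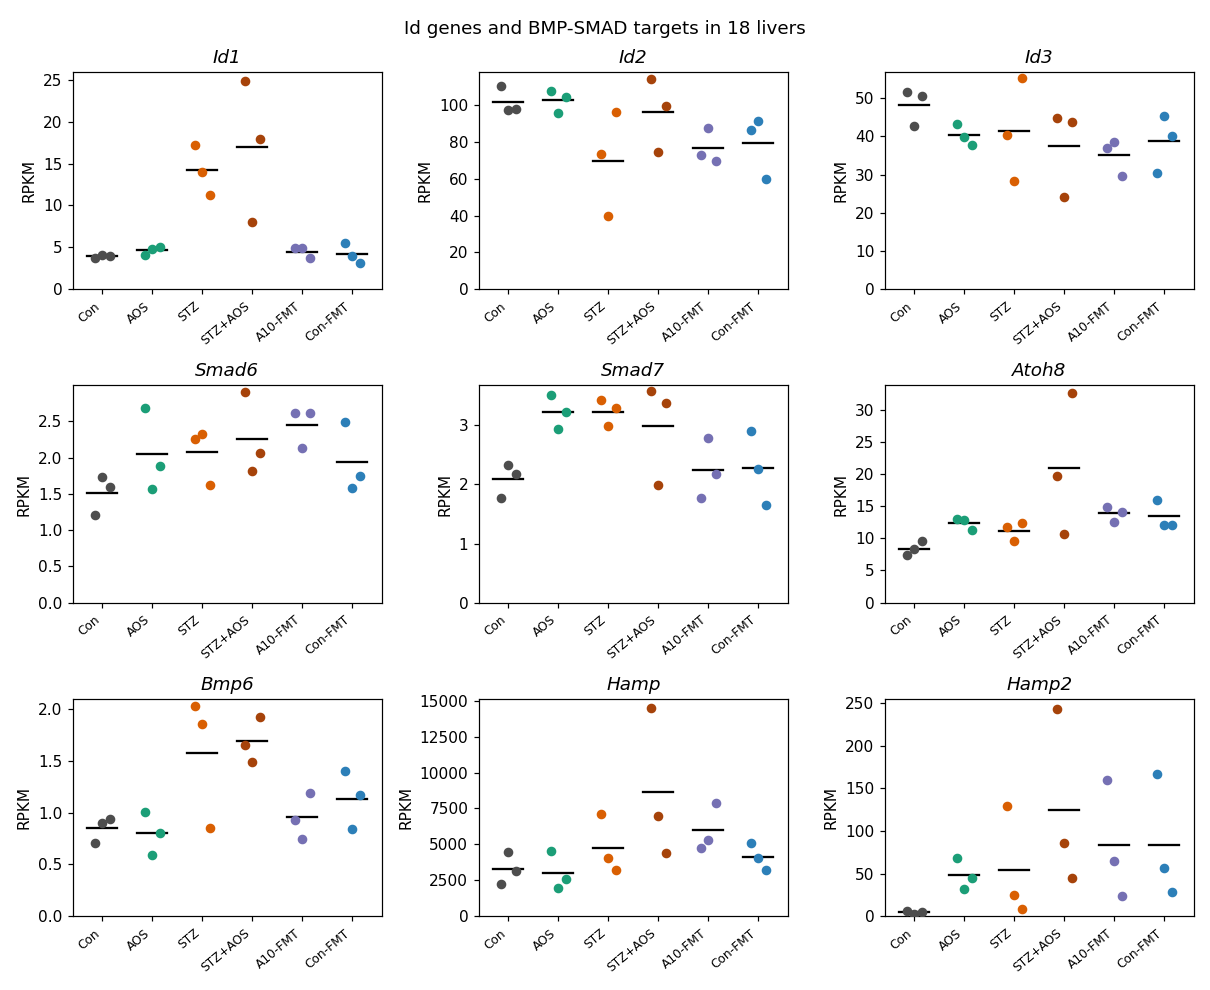
RPKM of each member (y axis, linear from 0) in the 3 mice of each of the 6 groups (x axis), with points for mice and a black line for the mean. In the panel of Id1 the STZ and STZ+AOS mice sit between 8.07 and 24.9 RPKM and all others at 5.54 RPKM or below, and in the panel of Hamp2 the Con mice sit at 6.50 RPKM or below.

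STZ+AOS against AOS compared mice with and without streptozotocin in livers outside the contrasts used in the choice of members. Members and tests were chosen with earlier results of these data known, so this test is not shown to be independent of the choice. Of the 9 members, 3 were called higher and 0 lower at an adjusted p under 0.05 (limma on log2(RPKM + 1) over 10822 genes and 18 libraries, Benjamini-Hochberg), where 37.9% of all genes were called, 31.8% higher and 6.11% lower. The share of members called was thus close to that of all genes. The members' median log2 difference was 0.58, beside 0.21 for all genes.

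Id1 was 3.63-fold higher in STZ+AOS than in AOS by mean RPKM. On the log2(RPKM + 1) scale, which understates the change of genes at low levels, the difference was 1.54 ± 0.28 (SE, n = 3 against 3; limma adjusted p = 0.00104), or 1.33 above the median of all genes. All 3 STZ+AOS mice were above all 3 AOS mice. Leaving out each mouse in turn kept the difference between 1.21 and 1.97. The lowest of the STZ+AOS mice, mouse 2 at 8.07 RPKM, was also the lowest of its group in 7 of the 9 members (Id1, Id2, Id3, Smad6, Smad7, Atoh8 and Bmp6). AOS mouse 1 was the highest of its group in 8 of the 9, and STZ+AOS mouse 1 and Con-FMT mouse 1 in 7 each. How often these mice were so placed over all genes is not given, so nothing is read from these counts.

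Bmp6, the ligand, was at 1.01, 0.59 and 0.80 RPKM in the AOS mice and at 1.66, 1.49 and 1.93 RPKM in the STZ+AOS mice. The groups did not overlap, as was also so in 49.1% of all genes. The mean was 2.12-fold higher and the log2 difference was 0.58 ± 0.17 (limma adjusted p = 0.0132), or 0.37 above the median of all genes. With median centring the adjusted p was 0.0951, and without AOS mouse 2 it was 0.0615.

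Hamp, the hepcidin gene, was at 4564, 1927 and 2566 RPKM in AOS and at 14508, 6974 and 4373 RPKM in STZ+AOS. The groups overlapped, since STZ+AOS mouse 3 lay below AOS mouse 1. The mean was 2.85-fold higher, with a log2 difference of 1.43 ± 0.44 (limma adjusted p = 0.0190). The call was lost without a filter (adjusted p = 0.0505), with median-ratio scaling (0.0509), with median centring (0.0581) and in a fit of the compared groups alone (0.0724). It was also lost without STZ+AOS mouse 1 (0.0889), AOS mouse 2 (0.0888) or AOS mouse 3 (0.0587).

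The other 6 members did not pass the test between STZ+AOS and AOS. Atoh8 was at 13.1, 12.9 and 11.3 RPKM in AOS and at 19.7, 10.6 and 32.5 RPKM in STZ+AOS, with a log2 difference of 0.58 ± 0.26 (limma adjusted p = 0.0834) and an overlap through STZ+AOS mouse 2. Without that mouse the difference was 0.98 (adjusted p = 0.00152). Hamp2 differed by 1.08, with a 95% interval from -0.82 to 2.97. As deposited, the inhibitory SMAD genes differed little between these groups. The log2 difference was -0.11 for Smad7 (95% interval -0.46 to 0.25) and 0.10 for Smad6 (-0.25 to 0.45). The same held for Id2 at -0.12 (-0.64 to 0.41) and Id3 at -0.15 (-0.66 to 0.36). The signs of these last 4 differences turned under at least 1 alternative. With median centring the differences were -0.36 for Smad7, -0.15 for Smad6, -0.37 for Id2 and -0.40 for Id3.

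**Figure D3:**
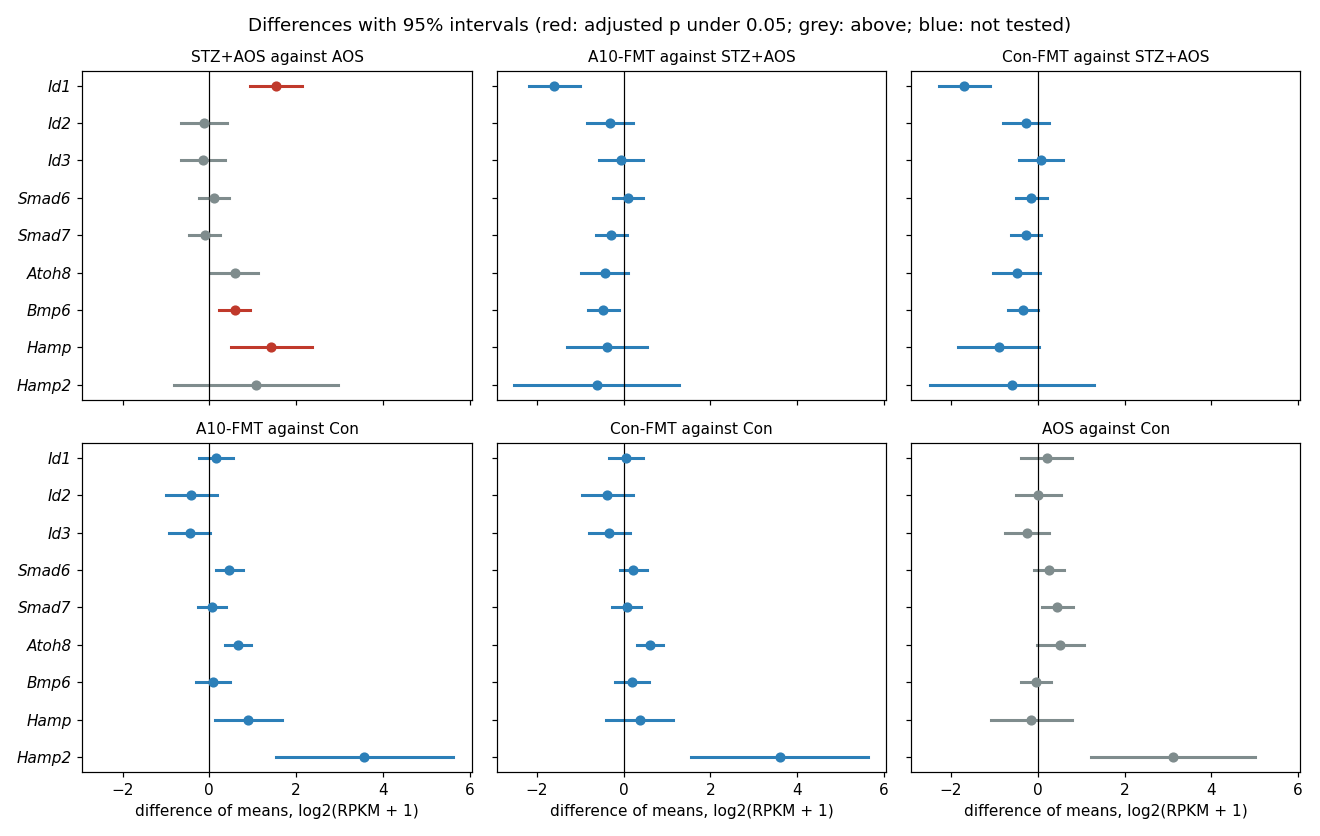
Difference of group means on the log2(RPKM + 1) scale (x axis) with 95% intervals for the 9 members (y axis) in 6 comparisons. Red marks an adjusted p under 0.05 and grey one above it, and blue marks the 4 comparisons of FMT mice, which have no test here. Id1 lies at 1.54 in STZ+AOS against AOS and between -0.24 and 0.54 over its interval in A10-FMT against Con, and the intervals of Hamp2 are the widest.

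The contrasts used in the choice are given as values. In STZ against Con 4 members were called, all higher, where 38.5% of all genes were called (33.0% higher), and nothing is read from this count. With median-ratio scaling, quantile normalization or median centring 1 member was called higher (Id1) and 1 lower (Id2). Of all 10602 genes, 2893 were called with median-ratio scaling, 1488 higher and 1405 lower, and nothing is read from these counts either. As deposited, the log2 difference was 1.61 ± 0.18 for Id1, 0.46 ± 0.15 for Smad7, 0.37 ± 0.13 for Atoh8 and 2.55 ± 0.93 for Hamp2. Relative to the median of all genes these were 1.40, 0.24, 0.16 and 2.34. The others were 0.45 ± 0.18 for Bmp6, 0.29 ± 0.14 for Smad6 and 0.52 ± 0.35 for Hamp, and 2 Id genes were lower, with -0.63 ± 0.27 for Id2 and -0.27 ± 0.22 for Id3. Relative to the same median they were 0.24, 0.07, 0.30, -0.84 and -0.48 in that order. Id2 was at 111, 97.5 and 98.0 RPKM in Con and at 73.8, 39.9 and 96.2 RPKM in STZ, where mouse 2 was the lowest of all 18 livers. Id1 was above Con in every STZ mouse, Id2 was below it in every one, and Id3 overlapped with Con. For Id2 this rested on 96.2 against 97.5 RPKM in the closest pair, and without 1 mouse its difference ran from -0.90 to -0.27. The contrast entered the choice, so nothing is read from these positions.

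Against STZ, the log2 difference of Id1 was -1.46 ± 0.18 in A10-FMT and -1.56 ± 0.18 in Con-FMT. Id1 was the 1 member called in each, where 0.226% and 0.00943% of all genes were called, and nothing is read from these calls. They were lost in 5 of 16 alternatives in each FMT group. The counts of all genes called also rested on STZ mouse 3, without which they were 1343 and 1636 in place of 24 and 1. In the same order, Smad7 differed by -0.40 ± 0.15 and -0.39 ± 0.15, and Bmp6 by -0.37 ± 0.18 and -0.25 ± 0.18. Both comparisons share the STZ mice with STZ against Con, so a high STZ value enters all of them.

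The FMT groups were therefore also set beside STZ+AOS, which was outside the contrasts used in the choice. This comparison was added after the data were seen. The FMT mice themselves entered the choice, so no test is given. The log2 difference of Id1 was -1.59 ± 0.28 in A10-FMT and -1.69 ± 0.28 in Con-FMT. Bmp6 differed by -0.46 ± 0.17 and -0.34 ± 0.17. Hamp differed by -0.38 ± 0.44 and -0.90 ± 0.44, and its groups overlapped in both.

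Against Con, the recipients of microbiota gave the levels after streptozotocin and transfer relative to untreated liver. Both groups of mice entered the choice, so these differences are values without a test. Over all genes the median log2 difference from Con was 0.16 (A10-FMT) and 0.19 (Con-FMT). How many of all genes had no overlap with Con is not given here. Nothing is therefore read from the positions of FMT mice relative to Con mice, which are given below for single members. In A10-FMT 3 of 9 members were called, all higher, where 18.4% of all genes were called (15.9% higher). In Con-FMT 2 of 9 were called, both higher, where 19.4% were called (17.5% higher), and nothing is read from these counts. Id1 differed by 0.15 ± 0.18 and 0.05 ± 0.18.

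Atoh8 was at 7.33, 8.34 and 9.55 RPKM in Con, at 14.9, 12.6 and 14.1 RPKM in A10-FMT and at 15.9, 12.1 and 12.1 RPKM in Con-FMT. All 6 FMT mice were above the 3 Con mice, with log2 differences of 0.66 ± 0.13 and 0.61 ± 0.13. Relative to the median of all genes these differences were 0.50 and 0.42. With median-ratio scaling the difference in Con-FMT was 0.40.

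Smad6 was at 1.21, 1.73 and 1.60 RPKM in Con and at 2.62, 2.13 and 2.61 RPKM in A10-FMT, a log2 difference of 0.46 ± 0.14 without overlap. With median-ratio scaling it was 0.33, and in Con-FMT the difference was 0.22 ± 0.14. The difference between the FMT groups was itself tested, although the mice of both had entered the choice. No member was called in A10-FMT against Con-FMT by limma, where 0% of all genes were called and 303 of 10602 had an unadjusted p under 0.05. The members' differences there ran from -0.13 to 0.52.

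Hamp was at 2210, 4496 and 3113 RPKM in Con, at 4765, 5321 and 7861 RPKM in A10-FMT and at 5114, 4065 and 3244 RPKM in Con-FMT. The A10-FMT mice were all above the Con mice (0.90 ± 0.35), and those of Con-FMT overlapped with them (0.37 ± 0.35). Id2 differed by -0.41 ± 0.27 and -0.38 ± 0.27, with the mice of both FMT groups all below the Con mice. Id3 differed by -0.45 ± 0.22 and -0.33 ± 0.22, with the A10-FMT mice all below the Con mice and those of Con-FMT overlapping with them.

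Hamp2 varied widely between mice of a group. It was at 6.50, 2.96 and 4.32 RPKM in Con and at 67.9, 31.8 and 44.7 RPKM in AOS. In STZ it was at 129, 25.3 and 8.21 RPKM, and in STZ+AOS at 243, 86.0 and 44.7 RPKM. A10-FMT had 160, 65.3 and 24.0 RPKM and Con-FMT 167, 57.0 and 27.8 RPKM. The 3 Con livers were the lowest of the 18, and mouse 1 was the highest of its group in all 6 groups. Of 10822 genes, 37 (0.342%) had the same mouse number highest in all 6 groups. What the numbers stand for was not given in the sources used here.

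Hamp2 differed from Con by 3.57 ± 0.93 in A10-FMT and 3.60 ± 0.93 in Con-FMT, with all 6 FMT mice above the Con mice. Leaving out mouse 1 gave 2.91 for A10-FMT and 2.92 for Con-FMT.

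AOS against Con asked whether the oligosaccharide alone went with a difference, beside Con mice that had entered the choice of members. No member was called, where 0.00924% of all genes were called and 781 of 10822 had an unadjusted p under 0.05. Hamp2 was 10.5-fold higher in AOS by mean RPKM, with a log2 difference of 3.12 ± 0.89 (95% interval 1.22 to 5.01), no overlap and a limma adjusted p of 0.524. In a fit of the 2 groups alone its adjusted p was 0.00899, and over all alternatives it ran from 0.00899 to 1.00. Smad7 differed by 0.45 ± 0.17 (adjusted p = 0.627) and Atoh8 by 0.52 ± 0.26 (adjusted p = 0.691), both without overlap. Id1 differed by 0.20 ± 0.28 (adjusted p = 0.908), also without overlap, and 4 of 9 members had no overlap beside 24.4% of all genes.

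The level of Hamp2 was a small share of that of Hamp in every liver. It was 0.0658% to 0.294% of Hamp in Con and 1.49% to 1.74% in AOS. In STZ the range was 0.258% to 1.83%, in STZ+AOS 1.02% to 1.68%, in A10-FMT 0.305% to 3.36% and in Con-FMT 0.858% to 3.26%. Con and AOS did not overlap in this share, although Hamp itself was alike in level (3273 ± 1152 and 3019 ± 1376 RPKM). The main Hamp and Hamp2 transcripts were identical at 94.6% of 410 aligned bases, with a longest identical run of 87 bases. Of the 361 stretches of 50 bases in Hamp, a length set here, 60 (16.6%) also occurred in Hamp2. Both levels are uncertain for this reason, and how the authors' counting divided reads from such stretches was not tested.

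**Figure D4:**
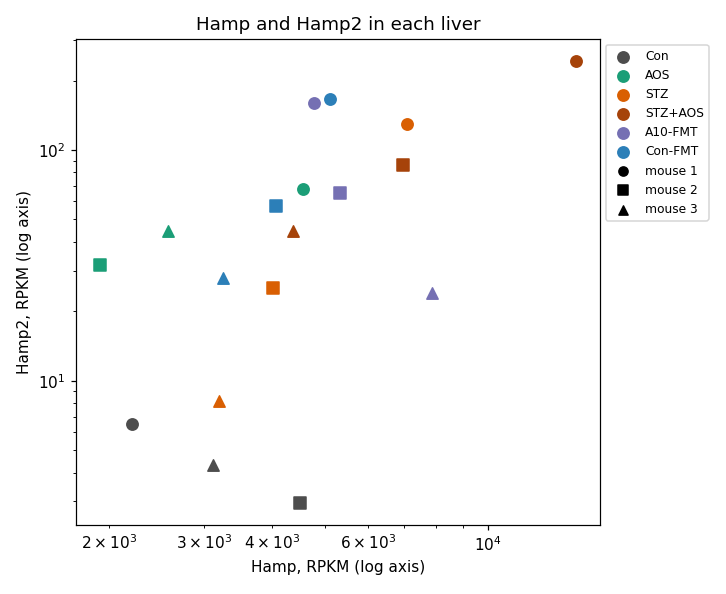
RPKM of Hamp (x axis) and Hamp2 (y axis) in each of the 18 livers, both on log axes, with colour for the group and shape for the mouse number. The Con livers lie lowest, at 2.96 to 6.50 RPKM of Hamp2, while their Hamp levels of 2210 to 4496 RPKM overlap those of AOS.

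STZ+AOS against STZ asked whether AOS went with a difference in mice given streptozotocin, beside STZ mice that had entered the choice. No member was called, where 0% of all genes were called and 657 of 10822 had an unadjusted p under 0.05. Id1 differed by 0.13 (95% interval -0.46 to 0.73), Hamp by 0.76 (-0.17 to 1.69), Hamp2 by 1.65 (-0.25 to 3.54) and Atoh8 by 0.72 (0.18 to 1.27, limma adjusted p = 0.806). The groups overlapped in all 9 members, and 5.13% of all genes had no overlap. The effect of streptozotocin with AOS minus that without AOS was tested as an interaction. It contains STZ against Con, which the choice used, so it is not independent of the choice. Again no member was called, with 0% of all genes called and 584 at an unadjusted p under 0.05. The interaction was -0.07 ± 0.39 for Id1 and -0.56 ± 0.24 for Smad7. The Smad7 values were 3.52, 2.93 and 3.23 RPKM in AOS, 3.43, 2.98 and 3.29 RPKM in STZ and 3.58, 1.99 and 3.38 RPKM in STZ+AOS, beside 1.77, 2.33 and 2.18 RPKM in Con. Smad7 was thus above Con in all 3 mice of both AOS and STZ.

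Other genes were taken from 6 hand-written lists, 1 of them of interleukin-6 and acute-phase genes and the others of BMP signalling and bHLH genes. The lists held 78 names, of which 76 were in the table and 57 passed the filter. In STZ+AOS against AOS 21 of these 57 were called higher and 4 lower, where 31.8% of all genes were called higher and 6.11% lower, so these shares were near those of all genes. The lists together had a median log2 difference of 0.33, beside 0.21 for all genes. The medians of single lists ran from 0.16 for the bHLH genes to 0.76 for the interleukin-6 and acute-phase genes. Of 10 SMAD proteins and partners 5 were higher and 0 lower. Smad9 and Smad5, which encode SMADs that BMP receptors phosphorylate, differed by 0.92 ± 0.21 and 0.41 ± 0.10 (limma adjusted p = 0.00362 and 0.00560). Smad4, the shared partner, differed by 0.65 ± 0.17 (adjusted p = 0.00994). Of 10 receptors and co-receptors 2 were higher and 0 lower, the type I receptor gene Bmpr1a by 0.44 ± 0.11 (adjusted p = 0.00588) and the type II receptor gene Bmpr2 by 0.36 ± 0.09 (adjusted p = 0.00774). With median-ratio scaling, quantile normalization or median centring, Smad5, Smad4, Bmpr1a and Bmpr2 no longer passed. Acvr2b, another type II receptor gene, differed by 0.40 ± 0.16 (adjusted p = 0.0546).

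Of 9 ligands 4 were higher and 3 lower. Inhbc and Inhba, which encode activin subunits, fell by 1.56 and 1.19 on the log2 scale (limma adjusted p = 6.53e-05 and 0.00166). Gdf15, a stress-induced member of the ligand family, rose from 1.98 to 15.7 RPKM in the mean, by 2.26 ± 0.41 (adjusted p = 0.00103). Of 10 inhibitors 4 were higher and 1 lower. Bmper, which encodes a secreted BMP-binding protein, was at 0.10 to 0.12 RPKM in AOS and at 1.20 to 8.15 RPKM in STZ+AOS. It is 1 of the 4 called higher, but it passed the filter through the STZ+AOS mice and 1 STZ mouse, so no p is given for it. Fst, which encodes the activin-binding follistatin, rose from 2.30 to 7.29 RPKM (adjusted p = 0.00406). Tmprss6, a hepatocyte protease gene whose product lowers hepcidin, fell from 161 to 127 RPKM (-0.34 ± 0.11, adjusted p = 0.0209). That call was lost in 4 of 15 alternatives, with only the compared groups (0.0731) and without STZ+AOS mouse 1 (0.0770), AOS mouse 1 (0.0790) or AOS mouse 2 (0.0591).

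Of 4 bHLH genes, most of them partners of the Id proteins, 1 was higher, Tcf12 by 0.60 ± 0.10 (limma adjusted p = 0.000816). Tcf3 differed by 0.33 ± 0.13 (adjusted p = 0.0530) and Hes1 by -0.13 ± 0.25 (adjusted p = 0.701). Of 14 interleukin-6 and acute-phase genes 5 were higher and 0 lower, with a median of 0.76. Among them Stat3 rose by 0.91 ± 0.15, the receptor gene Il6ra by 1.27 ± 0.23 and the feedback inhibitor gene Socs3 by 2.03 ± 0.38 (adjusted p = 0.000691, 0.00106 and 0.00128). In STZ against Con 3 genes of this list were higher and 6 lower, with a median of -1.11, and in AOS against Con it had a median of -0.85 with 0 called.

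**Figure D5:**
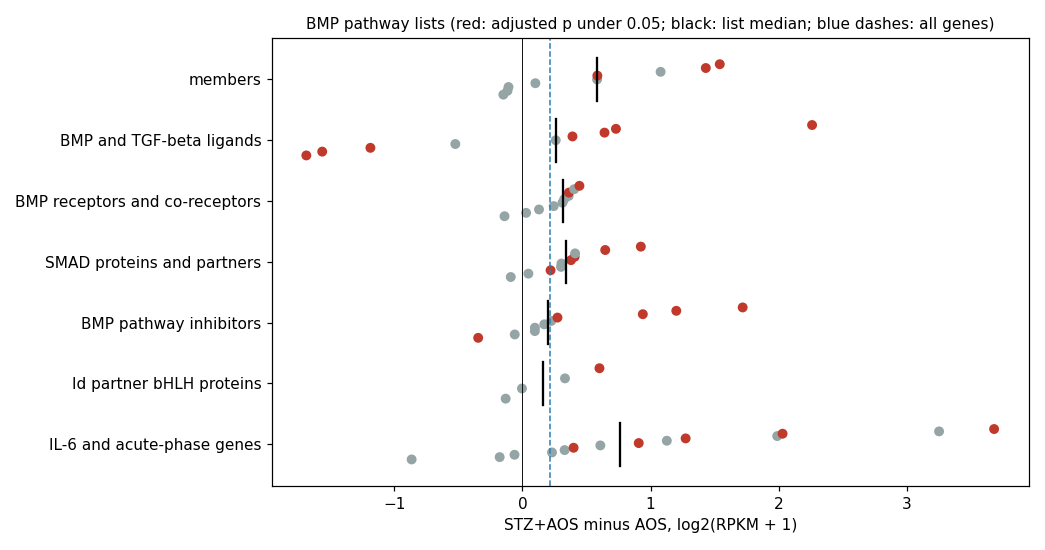
Difference between STZ+AOS and AOS on the log2(RPKM + 1) scale (x axis) for the tested genes of each list (rows), 1 point per gene. Red points passed an adjusted p under 0.05, black lines are list medians (0.58 for the members, 0.76 for the interleukin-6 and acute-phase genes) and the blue dashed line is the median of all genes, 0.21.

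Summed levels of the markers of several liver cell types differed between STZ+AOS and AOS. Of all genes 31.8% were called higher there and 6.11% lower, with a median log2 difference of 0.21. The 6 hepatocyte markers summed to 46884 to 53378 RPKM in AOS and 33721 to 41239 RPKM in STZ+AOS, with 1 of 6 called higher, 3 lower and a median log2 difference of -0.58. In bulk liver, fewer cells of a type and less RNA per cell cannot be told apart. The summed level of 10 sinusoidal endothelial markers, the cells that make BMP6, was 65.7 to 75.1 RPKM in Con, 72.8 to 86.1 RPKM in AOS, 74.9 to 94.3 RPKM in STZ and 85.6 to 111 RPKM in STZ+AOS. In STZ+AOS against AOS 2 of 10 of these markers were called higher and 0 lower, with a median log2 difference of 0.30. The 8 stellate cell markers summed to 102.0 to 118 RPKM in AOS and 154 to 186 RPKM in STZ+AOS. Of these, 1 of 7 tested was called higher, and their median log2 difference was 0.20. The 7 Kupffer cell markers summed to 74.1 to 101 RPKM in AOS and 104 to 139 RPKM in STZ+AOS. Here 1 of 7 was called higher, and the differences ran from -0.09 to 2.40 with a median of 0.20. The stellate and Kupffer medians were thus near that of all genes. No marker of these 3 lists was at 0 in all libraries, and the part of these cells, hepatocytes included, in the levels of Id1, Hamp and Bmp6 was not tested. Sums over the 8 lymphocyte and neutrophil markers stayed at 20.3 RPKM or below and those over the 5 cholangiocyte markers between 20.1 and 41.2 RPKM in all libraries. The 5 pancreatic acinar markers, whose transcripts could come from neighbouring tissue, summed to 30.6 to 48.9 RPKM in Con and AOS and 2.96 to 22.7 RPKM in the other groups.

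The genes most like Id1 over the 18 libraries, by Pearson's r of log2(RPKM + 1) among 10822 genes and as a description, were Uba2 (0.93), Helz (0.93), Cbr3 (0.92), Lrp6 (0.92), Idua (0.92) and Fam234b (0.91). Lrp6, a Wnt co-receptor gene, had mean RPKM of 5.18 in Con, 6.17 in AOS, 8.40 in STZ, 9.23 in STZ+AOS, 5.85 in A10-FMT and 5.13 in Con-FMT. The libraries share their group differences, which enter these values. The genes most like Hamp were Riok2 (0.89), Ggt6 (0.88) and Mbtps2 (0.87).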

How the data were processed

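Liver RNA of 18 mice was analysed. The deposited values are RPKM, which the authors made from Illumina reads of oligo(dT)-enriched mRNA, primed with random hexamers, by division by transcript length and mapped reads. The methods of the study name SOAPaligner for mapping, and the submitters' processing notes list Bowtie 0.12.2 and mm10; which was used for the table is unclear. The setting described kept all hits of repeated reads. Each of the 18 columns was tied to its sample through the labels.

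A gene entered the fit when it reached 1 RPKM in 3 or more libraries, and log2(RPKM + 1) was analysed. The fit used limma 3.58.1 under R 4.3.3 (eBayes with trend, Benjamini-Hochberg within each comparison), over 12 libraries of Con, STZ and both FMT groups (10602 genes), and over all 18 libraries (10822 genes) where AOS or STZ+AOS entered. Calls needed an adjusted p below 0.05. No count test was run, since the table holds RPKM; read totals were not recovered. No exact test of 3 against 3 mice can go below p = 0.1. The labels do not say whether the samples of a group came from separate cages, and p-values measure only the spread between these samples.

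Members, lists, tests and motifs were chosen with earlier results of these data known. All members were named, and from each list the 3 genes ranked first by adjusted p in STZ+AOS against AOS, besides the 6 genes most like Id1 and the 3 most like Hamp. The mouse numbers paired A10-FMT with Con-FMT only (correlations of deviations 0.12 to 0.29), where a block changed no call. On simulated data for STZ+AOS against AOS, 191 of 200 genes changed by 2 on the log2 scale were recovered among 10822, with 9 false calls. That change is larger than the difference of any member there (at most 1.54), so recovery at the size of the members' differences was not tested. Promoters are from RefSeq and positions from GENCODE M21; alignments used Biopython 1.88. Alternatives were no filter, a pseudocount of 0.1, a minimum of 1 RPKM throughout, median-ratio scaling, quantile normalization, median centring, no trend, only the compared groups, all 6 groups, a replicate block and leaving out each mouse.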

Additional observations from a re-analysis of the deposited data

How the results depend on the processing

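The difference of Id1 between STZ+AOS and AOS passed in all 15 alternatives (1.21 to 1.97, adjusted p 4.11e-05 to 0.0228). The number of members called moved as follows. The number of all genes called moved too, as given further below, and nothing is read from these member counts. In STZ against Con it was 1 without a filter and 2 with no trend or only the compared groups. It was also 2 with median-ratio scaling, quantile normalization or median centring, each with Id2 lower, and 1 to 5 without 1 mouse. For A10-FMT against STZ, as for Con-FMT, it was 0 with only the compared groups, and 0 to 2 for each without 1 mouse. In A10-FMT against Con it was 1 without a filter or with all 6 groups, 6 with only the compared groups and 1 to 2 without 1 mouse. In Con-FMT against Con it was 1 without a filter, with median-ratio scaling, quantile normalization, median centring or all 6 groups, and 0 to 2 without 1 mouse. In STZ+AOS against AOS it was 1 with median centring and 1 to 4 without 1 mouse, in AOS against Con 1 with only the compared groups, and against STZ+AOS 0 for both FMT groups with only the compared groups, and without 1 mouse 1 to 3 (A10-FMT) or 0 to 2 (Con-FMT). Differences that turned sign were small. Id1 against Con was -0.016 in A10-FMT after median-ratio scaling and -0.023 after median centring, and in Con-FMT it was -0.14, -0.11 and -0.16 after median-ratio scaling, quantile normalization and median centring, and -0.13 to 0.21 without 1 mouse. In STZ+AOS against AOS, Smad6 was -0.064, -0.072 and -0.15 under the same 3 settings, and without 1 mouse it was -0.037 to 0.25, Id2 -0.25 to 0.053, Id3 -0.30 to 0.14, Smad7 -0.22 to 0.086 and Hes1 -0.34 to 0.093. Without 1 mouse Id1 in STZ+AOS against STZ was -0.19 to 0.56, its interaction -0.40 to 0.36, and Hamp in A10-FMT against STZ+AOS -0.78 to 0.081. The cause of these moves was not tested. Genes called ranged over the alternatives other than left-out mice from 2651 to 4098 in STZ against Con (4087 as reported), 1 to 95 in A10-FMT against STZ (24), 0 to 94 in Con-FMT against STZ (1), 1109 to 3355 in A10-FMT against Con (1953), 824 to 2128 in Con-FMT against Con (2059), 2483 to 4091 in STZ+AOS against AOS (4102), 0 to 41 in AOS against Con (1), 0 to 11 in STZ+AOS against STZ (0) and 0 to 6 in the interaction (0). Against STZ+AOS they ranged from 50 to 1344 (A10-FMT, 1356 as reported) and from 1 to 915 (Con-FMT, 934 as reported). Without 1 mouse they ranged from 0 to 1343 in A10-FMT against STZ and 0 to 1636 in Con-FMT against STZ, both highest without STZ mouse 3, and in the same order as above from 2562 to 5012, 547 to 1468, 603 to 2096, 2767 to 4045, 0 to 6, 0 to 2 and 0 to 0 in the others up to the interaction, and 119 to 2188 and 1 to 1602 against STZ+AOS. Of the genes called in STZ+AOS against AOS, 83.9% were higher as deposited and 49.9% with median-ratio scaling; in STZ against Con these were 85.7% and 51.4%. With the replicate number as a block, A10-FMT against Con gave 2 members in place of 3, without Smad6. The block left the number of members called as it was in STZ+AOS against AOS (3). Reads per library are not given, so the counting error of low levels such as that of Bmp6 could not be calculated.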
